A study of Mus musculus with 4 samples.

Results

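The knockout effect on brain endothelial transcripts was set side by side at embryonic days 15 (E15) and 18 (E18), and the difference between the effects was computed for each gene. The value described throughout is the stage difference, the log2 ratio of knockout to wild type at E18 minus that at E15, on read counts scaled to library totals (CPM) plus 1 CPM. A stage difference of 1 therefore means that the ratio was 2-fold higher at E18, and one of -1 that it was 2-fold lower. Of 20194 genes in either deposited table, 16181 are listed in both, and 10520 of these were kept. Members had at least 5 CPM in 1 library and 100 reads over the 4 libraries, and lay off chromosomes X and Y, where 370 genes otherwise passed. The read minimum removed no gene. Just inside the level limit stood Vat1l, with a highest level of 5.002 CPM and a stage difference of 2.67, and just outside it Fam212a, with 4.98 CPM and 0.00.

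All samples were brain endothelial cells of C57BL/6 embryos. The wild-type (WT) and the UCP2f/f;Tie2-cre knockout (KO) groups were each taken at E15 and at E18. In the knockout, Ucp2 flanked by loxP sites meets Cre recombinase driven by the Tie2 promoter, which is active in endothelial cells and also in most blood cells, so deletion is not limited to endothelium. Each of the 4 groups held 1 library, although the design text speaks of replicates, and whether a library pools several embryos was not given in the sources used here. With 1 library a group the stage difference has no replicate check. No p-value is given, and every value below describes these 4 libraries. Values of 4 libraries are always given in the order WT E15, KO E15, WT E18, KO E18. An interval in brackets is the 95% counting interval of the log2 ratio of ratios without the pseudocount. It covers counting error only, not the spread between embryos, and for weakly expressed genes it can lie beyond the stage difference itself.

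UCP2 is a carrier of the mitochondrial inner membrane that moves metabolites out of the matrix and is tied to the use of different fuels and to the release of reactive oxygen species. Between these stages vessels of the embryonic brain keep sprouting, recruit pericytes, mature as a barrier and divide less. Neural progenitors around them pass from making neurons to making astrocytes, and the series concerns endothelial UCP2 in that switch. A difference between the stages thus asks which transcripts the loss of Ucp2 moved with in the younger but not in the older endothelium, or the reverse.

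Library totals were between 15542930 and 21992660 reads, and 95.7% to 96.0% of them fell in the 10520 members. The 22 pan-endothelial markers were detected in every library, with summed levels from 27170.1 to 30542 CPM, so endothelial RNA was present in each. This does not measure purity. The 16 mural cell genes summed to 8024, 5345, 10029 and 12350.4 CPM. The libraries also differed in sex-linked transcripts. Y-linked genes had 227, 270, 7685 and 98 reads in all, and Xist had 2549, 2109, 0 and 547. At E18 the sex of the sample and the genotype cannot be told apart, and a stage difference contains the E18 ratio.

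Ucp2 itself (ENSMUSG00000033685, chromosome 7, 100493337 to 100502020, GRCm38) had 276, 163, 351 and 150 CPM. It was lower in the knockout at both stages, with ratios of -0.75 at E15 and -1.22 at E18. Its stage difference was -0.47 [-0.56 to -0.38], so the deficit was larger at E18 but short of a 2-fold change of the ratio. Ucp2 overlaps Dnajb13 on the other strand, and reads of both may mix if counting ignored strand.

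Across members, stage differences spread about a median of -0.01 with an SD of 0.69, and the middle 50% lay between -0.36 and 0.31. A stage difference of 2-fold or more was called in 1180 genes (11.2%). In 500 genes (4.75%) the ratio was higher at E18, and in 680 (6.46%) it was lower. At 4-fold or more, 96 genes were higher (0.913%) and 117 lower (1.11%), 213 in all (2.02%). Above 0 lay 49.1% of members and below 0 lay 50.9%, so signs were nearly balanced. These percentages are the background against which every count below is read.

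The stages were about equally far from wild type. At E15 the ratio passed 2-fold in 588 members (5.59%), of which 320 were higher in the knockout (3.04%) and 268 lower (2.55%). At E18 it did so in 603 (5.73%), of which 244 were higher (2.32%) and 359 lower (3.41%). In 5093 members (48.4%) the signs of the ratios were opposite. Only 65 members (0.618%) passed 2-fold at both stages in the same direction. Another 32 (0.304%) passed it downward at E15 and upward at E18, and 20 (0.190%) in the reverse order.

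**Figure D1:**
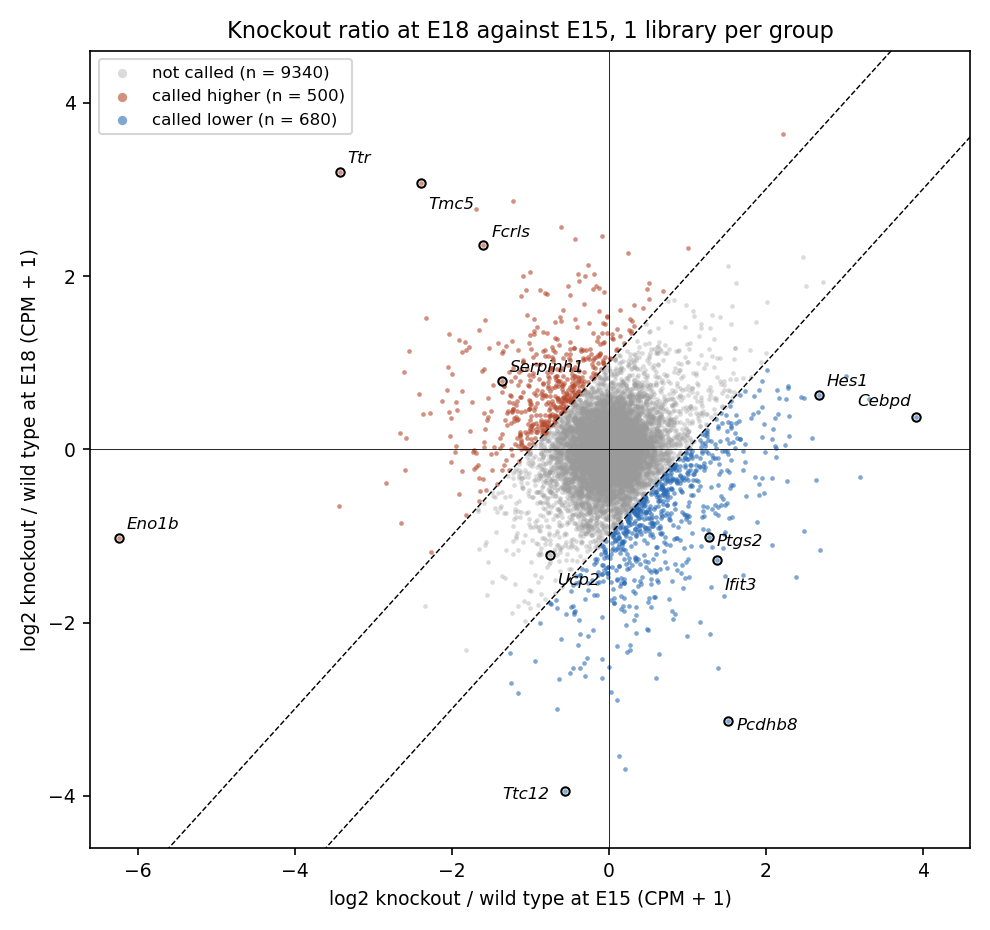
Each point is 1 of the 10520 members, with the log2 ratio of knockout to wild type at E15 on the x axis and at E18 on the y axis, both on CPM plus 1. Dashed lines mark a stage difference of 1 and -1. The 500 genes called higher lie above the upper line, the 680 called lower below the lower line, and Ucp2 lies between the lines with both ratios below 0.

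Calls were concentrated among weakly expressed genes. Below a mean of 10 CPM over the 4 libraries, 30.7% of 2241 members were called. The share was 11.9% of 2919 between 10 and 30 CPM, 3.84% of 3280 between 30 and 100 CPM, and 0.962% of 2080 at 100 CPM or more, where 8 genes were higher and 12 lower. Because a gene entered through its highest library, a member that is weak elsewhere was bound to differ among libraries. For the called genes the counting interval excluded 0 in 480 of 500 higher and 642 of 680 lower genes, and the rest had a library at 0 reads and no interval. Of the 9340 genes that were not called, the interval excluded 0 in 5746 and included it in 3570, and 24 had no interval. Intervals of weak genes can be several log2 units wide, and none of them covers the spread between embryos.

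**Figure D2:**
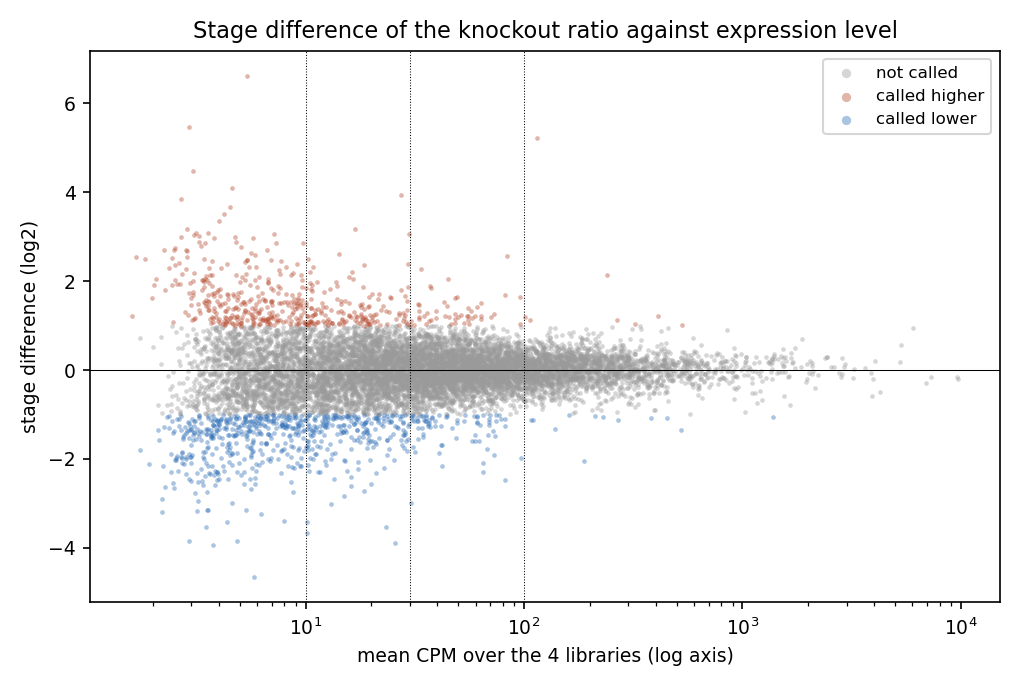
The stage difference (log2) of each member is plotted against its mean CPM over the 4 libraries on a log axis, with dotted lines at 10, 30 and 100 CPM. The spread narrows to the right, from an SD of 1.08 below 10 CPM to 0.35 at 100 CPM or more.

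A stage difference has the same value whichever library departs from the others. Among the 680 genes called lower, the knockout library was the farthest from the median of the other 3 in most cases. It was the E18 knockout, below the rest, in 312 genes, and the E15 knockout, above the rest, in 238. A wild-type library departed in 65 genes at each stage. Among the 500 called higher the departures were spread more evenly. The E15 wild type lay above in 132, the E15 knockout below in 137, the E18 wild type below in 147 and the E18 knockout above in 84. In the E18 knockout 53 members had 0 reads, against 5, 11 and 15 in the other libraries.

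Among strongly expressed genes, those whose stage difference was lowest mostly had their highest level in the E15 knockout. Hes1 (chromosome 16, 30064384 to 30067796), a repressor switched on by Notch signals, had 86.3, 556, 42.3 and 66.1 CPM. The E15 knockout stood far above the other libraries, the E18 knockout was moderately above its wild type, and the stage difference was -2.04 [-2.19 to -1.90]. Lrp10, a lipoprotein receptor relative, had 94.6, 294, 73.3 and 90.9 CPM and a stage difference of -1.32 [-1.45 to -1.19]. H1f0, a linker histone, had 264, 887, 146 and 234 CPM, with a knockout excess at both stages that was smaller at E18 (1.74, then 0.67).

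The same shape was shared by other genes of this level. Igfbp7, a secreted protein of vessels that binds insulin-like growth factors, had ratios of 1.05 at E15 and -0.07 at E18. Tram1, which helps proteins enter the endoplasmic reticulum, had 1.19 and 0.07, and the kinase gene Map4k5 had 1.01 and -0.11. Igfbp3, another binding protein of the same growth factors, had 0.70 and -0.34. Igfbp7 and Map4k5 overlap genes on the other strand and are uncertain to that extent. In each of these 4 genes the E15 knockout library was the one that departed.

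Weaker genes with the E15 knockout high included several regulators. Cebpd, a transcription factor of acute responses, had 4.38, 80.1, 3.72 and 5.14 CPM, a stage difference of -3.54 [-4.28 to -3.18]. It overlaps Spidr on the other strand. Ppm1d, a phosphatase that dampens p53 signalling, had 5.92, 40.7, 3.57 and 4.001 CPM (-2.46 [-3.17 to -2.06]). In both, the other 3 libraries lay close together. Phlda3, a p53 target that restrains AKT, had 19, 143, 10 and 12 reads (-2.11), whereas Cdkn1a, the best known p53 target, had nearly equal ratios at the stages (0.39 and 0.33). Of 19 p53 targets, 4 were called lower and 0 higher, with a median of -0.05.

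Foxq1, a forkhead transcription factor of brain endothelium, followed the same shape with 34.7, 94.0, 21.7 and 17.6 CPM (-1.69 [-1.98 to -1.49]). Gclm, which supports the enzyme that starts glutathione synthesis, had 14.0, 71.6, 8.65 and 14.8 CPM (-1.57 [-1.93 to -1.24]). Flt1, the VEGF receptor that acts largely as a trap for its ligand, had 1328, 2939, 1024 and 1317 CPM. Its stage difference of -0.78 [-0.82 to -0.75] was the lowest of the 22 pan-endothelial genes and remained short of a call.

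A smaller group of strongly expressed genes was lower at the other end of the contrast, with the E18 knockout below its wild type. Hspa1a, an inducible heat shock chaperone, had 752, 1095, 158 and 90.3 CPM (-1.34 [-1.44 to -1.26]). It is nearly identical to Hspa1b, so the split of reads between them is uncertain. Btg2, an antiproliferative early response gene, had 1064, 1174, 2121 and 1130.4 CPM, with the E18 wild type alone high (-1.05 [-1.09 to -1.01]). Nr4a1, an orphan nuclear receptor induced by many stimuli, had 444, 504, 553 and 296 CPM (-1.08 [-1.15 to -1.02]).

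Apart from Eno1b, the strongly expressed genes with the highest stage differences were below wild type at E15 and above it at E18. Serpinh1 (chromosome 7, 99345376 to 99353239), a chaperone of collagen in the endoplasmic reticulum, had 251, 97.6, 224 and 389 CPM. Its ratio was -1.36 at E15 and 0.79 at E18, a stage difference of 2.15 [2.06 to 2.26] or 4.43-fold. The wild-type libraries lay close together and both knockout libraries departed from them, in opposite directions. Eno1b had 2960, 25, 3398 and 1919 reads and the highest value of this group (5.22), but its sequence nearly equals that of Eno1, so its reads are uncertain.

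The other 8 genes of this group included genes of vessel walls and matrix. Mmp9, a protease of basement membranes, had 638, 362, 278 and 366 CPM (1.21 [1.15 to 1.28]). Cd248, a surface protein of pericytes and fibroblasts, had 414, 250, 657 and 797 CPM (1.01 [0.94 to 1.07]). Notch3, the Notch receptor of mural cells, had 99.6, 45.6, 125 and 132 CPM (1.20 [1.06 to 1.36]). In these 3 genes the E15 knockout lay below its wild type by more than the E18 knockout lay above.

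Igf2, a fetal growth factor, had 262, 156, 281 and 365 CPM (1.13) and overlaps an antisense gene. Ratios of -0.63 at E15 and 0.49 at E18 were found for Bin1, which bends membranes, and of -0.48 and 0.55 for Arl6ip1, which shapes the endoplasmic reticulum. The thrombin receptor gene F2r had -0.74 and 0.25, and Tnfrsf11b, a decoy receptor also called osteoprotegerin, -0.64 and 0.33. All 8 were below wild type at E15 and above it at E18. F2r and Tnfrsf11b were just under a 2-fold stage difference, at 0.99 and 0.97.

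**Figure D3:**
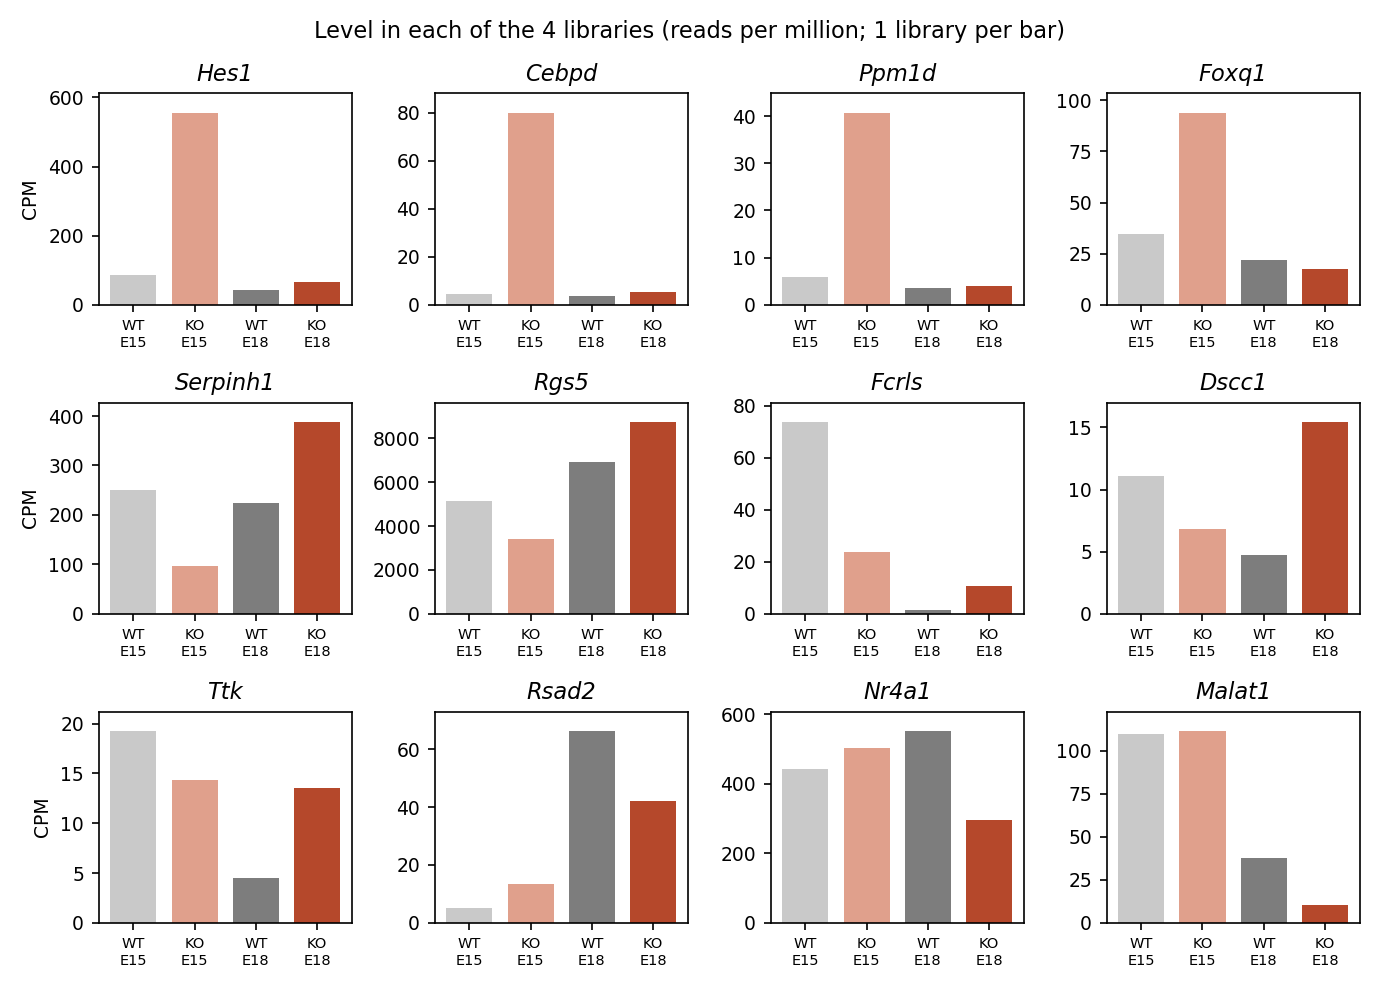
Bars give the CPM of 12 genes in each of the 4 libraries, with 1 library a bar and therefore no error bars, on axes that start at 0. Hes1, Cebpd, Ppm1d and Foxq1 are high in the E15 knockout alone, Serpinh1 and Rgs5 are low in it and highest in the E18 knockout, and Malat1 is lowest in the E18 knockout.

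Mural cell genes, those of pericytes and vessel muscle, had higher ratios at E18 than at E15. All 13 mural cell genes had stage differences above 0, from 0.39 to 1.20, with a median of 0.74, and 2 were called higher and 0 lower. Their ratios were below 0 in 13 of 13 at E15 (median -0.64) and above 0 in 9 of 13 at E18 (median 0.19). Rgs5, a pericyte regulator of G protein signalling, had 5128, 3401, 6910.4 and 8764 CPM (0.94 [0.92 to 0.95]). Kcnj8, a potassium channel subunit of pericytes, had 889, 623, 820 and 1080 CPM (0.91 [0.86 to 0.96]). Called higher were Notch3, above, and Foxs1, a forkhead factor of pericytes (59.7, 32.5, 61.6 and 76.9 CPM, 1.17). Summed over 16 listed mural genes the levels were 8024, 5345, 10029 and 12350.4 CPM, and each of them was detected in every library.

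Fibroblast and meningeal genes showed the same order. All 9 members were above 0, with a median of 0.95, and 4 were called higher and 0 lower. Col1a2, a chain of type I collagen, had 71.2, 42.0, 59.1 and 82.5 CPM (1.22 [1.07 to 1.42]). Col3a1, the chain of type III collagen, had 217, 95.2, 130.1 and 111 CPM (0.95 [0.83 to 1.07]), and Ogn, a matrix proteoglycan, had 99, 3, 37 and 14 reads. Col1a2 exceeded wild type at E18 whereas Col3a1 and Ogn remained below it at both stages. Summed levels of the 13 measured genes of this list were 789, 486, 677 and 777 CPM, with Pdgfra at 0 in both knockout libraries, Dcn at 0 in the E18 wild type and Col6a1 at 0 in the E18 knockout.

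Microglial and macrophage genes had the largest shift of the cell type lists with 5 or more members. Of 17 members, 15 had stage differences above 0 and 10 were called higher, with a median of 1.63, against 4.75% of all members called higher. Fcrls, a receptor relative typical of microglia, had 73.8, 23.8, 1.26 and 10.6 CPM (3.95 [4.07 to 5.33]). P2ry12, a purine receptor of resting microglia, had 1417, 408, 10 and 57 reads (3.06 [3.19 to 5.16]), and overlaps Med12l on the other strand. Tmem119, another microglial marker, had 587, 400, 0 and 108 reads, a ratio at least 48.1-fold higher at E18 with 3 reads put in place of 0. In these 3 genes both wild-type libraries set the picture, with the highest level of all libraries at E15 and the lowest at E18.

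Among microglial genes of higher level the shift was small. Lgmn, a lysosomal protease, had 267, 225, 218 and 226 CPM (0.30 [0.21 to 0.38]), and Laptm5, a lysosomal membrane protein of blood cells, had 231, 203, 159 and 190 CPM (0.45 [0.35 to 0.54]). C1qc, chosen after its values were seen, lay at -0.36 with 196, 449, 15 and 42 reads, while C1qa and C1qb, chosen likewise, lay at 1.63 and 1.90. Summed levels of the 20 measured genes were 1275, 799, 474 and 598 CPM. Fewer cells of a type and less RNA per cell cannot be told apart in bulk samples such as these. How far the shares of mural cells, fibroblasts and microglia in the 4 preparations bear on other stage differences, such as that of Serpinh1, was not tested.

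Genes of neural progenitors and astrocytes did not share the direction of the mural list. Of 8 radial glia and neural progenitor genes, 6 were below 0, with a median of -0.22 and 0 called. Nes, the intermediate filament nestin, which endothelial cells of the embryo also make, had 252, 387, 244 and 258 CPM (-0.53 [-0.62 to -0.45]). Slc1a3, a glutamate transporter, had the lowest value of this list (9.39, 11.0, 35.4 and 21.7 CPM, -0.89 [-1.30 to -0.58]). Of 8 astrocyte genes, 4 were below 0, with a median of -0.11, and Clu, the secreted chaperone clusterin, was the 1 call, higher with 224, 64, 140 and 124 reads (1.32). Aldh1l1, a folate enzyme that marks astrocytes, had 30, 33, 223 and 132 reads (-0.90 [-1.81 to -0.25]). Summed levels were 878, 947, 969 and 930 CPM over the 15 measured progenitor genes, and 6583, 7354, 9118 and 8385 CPM over the 11 measured astrocyte genes. Most of the astrocyte sum was Sparcl1, with 5670.7, 6374.0, 8144.1 and 7524.6 CPM. Vim (440.8, 389.1, 400.8 and 340.9 CPM) and Nes made up most of the progenitor sum. The sums thus rest largely on these genes and do not measure the share of either cell type.

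Pan-endothelial genes were balanced about 0. Of 22 members, 11 were above and 11 below 0, with a median of -0.03 and 0 called in either direction. Cldn5, the main claudin of brain endothelium, had ratios of 0.30 at E15 and 0.16 at E18 (-0.15), and Kdr, the main signalling receptor of vascular endothelial growth factor, -0.10 and -0.24 (-0.15). The blood-brain barrier list was alike, with 10 of 27 above 0, a median of -0.08, and Foxq1 as its 1 call. Slc2a1, the glucose transporter of the barrier, had 10525.4, 10967, 9176 and 8272 CPM (-0.21 [-0.22 to -0.20]). Spock2, a matrix proteoglycan, stood at the other end of the list with 1420.3, 1166, 2079 and 2790 CPM (0.71 [0.68 to 0.74]), the E18 knockout being the highest.

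Signalling lists of the endothelium had single genes that stood out rather than a common shift. Of 19 Notch pathway genes, 9 were above 0 and Hes1 was the 1 call, with a list median of -0.04. Hey2, a Notch target of arteries, went the other way from Hes1 (-0.73 at E15, 0.06 at E18, stage difference 0.79), and so did the receptor gene Notch2 (0.98). Of 15 Wnt and beta-catenin genes, 8 were above 0, and Dkk2, a secreted modulator of Wnt, was the 1 call (19.9, 13.9, 13.4 and 31.0 CPM, 1.64). Nkd1, a feedback inhibitor of Wnt, was above wild type at both stages by similar amounts (1.24 and 0.99), and Ctnnb1, beta-catenin itself, by more at E15 (0.74 and 0.17).

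Arterial and venous genes leaned lower. Of 15 arterial genes, 10 were below 0 and 2 were called lower. Gja5, the gap junction protein connexin 40 of arteries, had 12.8, 12.98, 16.9 and 6.50 CPM (-1.27 [-1.80 to -0.998]), and Fbln5, an elastic fibre protein, 39.3, 35.5, 51.9 and 20.9 CPM (-1.13 [-1.39 to -0.94]). Both were alike in the E15 pair and low in the E18 knockout. Of 11 venous genes, 8 were below 0 and 2 were called lower, Vcam1, an adhesion molecule for leukocytes (42, 107, 117 and 66 reads, -1.86), and Flrt2, a guidance protein (-1.002). Ptgs2, the inducible cyclooxygenase, had 3.15, 9.06, 23.2 and 11.0 CPM (-2.29 [-3.12 to -2.09]). It was more than 2-fold higher in the knockout at E15 and more than 2-fold lower at E18.

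Cell cycle genes had higher ratios at E18 than at E15. Of 43 genes of the S phase, 34 had stage differences above 0, with a median of 0.47, and 5 were called higher and 2 lower. Of 47 genes of mitosis and G2/M, 36 were above 0, with a median of 0.36, and 4 were called higher and 0 lower. The S phase list had median ratios of -0.09 at E15 and 0.34 at E18, and the mitosis list -0.17 and 0.22. Over all members the median stage difference was -0.01 and 49.1% were above 0.

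Promoters of this list are shown because most of its genes (36 of 47) lay above 0 and the list is known for shared elements. The tables of promoters from RefSeq (GRCm38.p6, 250 bases before to 50 after each start) held 38 of the 47 mitosis members. CHR, the cell cycle homology element (letters TTTGAA), and CCAAT, the NF-Y box, are bound by complexes that switch mitotic genes. On both strands CHR was found in 31 of the 38 (81.6%), against 20.2% of 27025 promoters and 14.1% of the 7967 promoters of members. CCAAT was found in 29 (76.3%), against 41.1% and 42.7%. The stretches shown hold the start of the mitotic checkpoint kinase gene Ttk (chr9:83834554-83834703, plus strand) and of Aspm, a spindle pole protein gene (chr1:139454638-139454787, plus strand), ending 15 transcribed bases past it, with matches in capitals.
Ttk: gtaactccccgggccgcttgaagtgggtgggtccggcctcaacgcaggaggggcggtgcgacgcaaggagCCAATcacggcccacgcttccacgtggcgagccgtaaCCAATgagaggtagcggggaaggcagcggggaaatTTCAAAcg
Aspm: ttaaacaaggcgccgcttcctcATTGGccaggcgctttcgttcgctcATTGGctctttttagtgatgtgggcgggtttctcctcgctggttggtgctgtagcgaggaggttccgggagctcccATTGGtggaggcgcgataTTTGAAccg
Counting from 1 at the first transcribed base and -1 just before it, Ttk has CCAAT at -65 and -28 and CHR at 8. In Aspm, CCAAT lies at -113, -88 and -12 and CHR at 7. A match is a description of letters, not of binding. The shares belong to the gene list whatever its stage differences, and members above and below 0 were not compared. This holds also for the elements of the S phase and interferon lists below.

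Both genes had high stage differences. Ttk had 19.3, 14.4, 4.46 and 13.6 CPM (1.81 [1.60 to 2.45]), with the E18 wild type alone low. Aspm had 28.2, 10.7, 9.80 and 17.0 CPM (2.06 [1.84 to 2.56]), with the E15 wild type highest. Sgol1, which protects cohesion at centromeres, was also called (13.6, 11.9, 5.45 and 11.3 CPM, 1.11). Among the most abundant, Smc4, a condensin subunit, had 0.33 [0.22 to 0.45] and Hjurp, a chaperone of centromeric histone, -0.20 [-0.31 to -0.10].

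In the S phase list the called genes included Dscc1, which helps load the sliding clamp and join sister chromatids, with 11.1, 6.86, 4.72 and 15.5 CPM (2.14 [1.92 to 2.88]). Gins1, a subunit of the replicative helicase, had 11.7, 4.47, 4.61 and 9.73 CPM (2.15 [1.94 to 3.00]), and E2f1, a transcription factor of S phase entry, 6.05, 3.31, 3.25 and 7.73 CPM (1.75). Mcm3, another helicase subunit, was near a call (221, 182, 173 and 253 CPM, 0.82 [0.73 to 0.92]), whereas Mcm6 moved little (0.14). Called lower were Chaf1a and Cdc7, chosen after their values were seen, at -1.36 and -1.19. The 2 E2F elements searched (TTTCGCGC and TTTGGCGC) occurred in 9 of 33 S phase promoters (27.3%), against 0.929% of all promoters and 1.88% of those of members.

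Interferon response genes had lower ratios at E18 than at E15. Of 30 members, 26 had stage differences below 0 and 9 were called lower, with 0 called higher and a median of -0.64, against 6.46% of all members called lower. Their ratios were above 0 in 20 of 30 at E15 (median 0.14) and below 0 in 27 of 30 at E18 (median -0.37). Levels were higher at E18 in both genotypes, by a median log2 of 1.48 in wild type and 0.84 in the knockout.

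Promoters of interferon genes are shown likewise, with 26 of 30 genes below 0 and a known shared element. ISRE, the interferon-stimulated response element, was searched on both strands as GAAA, NN and GAAA in a row, and such a match can overlap a CHR match. It was found in 11 of the 22 members with a promoter in the table (50%), against 3.99% of all promoters and 3.67% of those of members. The 180 bases before the start are given for Ifit3 (chr19:34583349-34583528, plus strand), with a match at -156 and another at -122, and for Rsad2 (chr12:26456453-26456632, minus strand), with a match at -120, in capitals on the complementary strand.
Ifit3: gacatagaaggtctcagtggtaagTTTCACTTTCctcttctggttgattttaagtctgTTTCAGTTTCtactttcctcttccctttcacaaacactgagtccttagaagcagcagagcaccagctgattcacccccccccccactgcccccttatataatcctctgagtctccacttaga
Rsad2: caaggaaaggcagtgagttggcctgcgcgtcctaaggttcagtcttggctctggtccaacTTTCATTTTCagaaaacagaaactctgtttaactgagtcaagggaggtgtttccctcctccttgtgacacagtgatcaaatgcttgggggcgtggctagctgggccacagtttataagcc
Ifit3 encodes a cytoplasmic antiviral protein and Rsad2 encodes viperin, an antiviral enzyme.

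Ifit3 had 4, 37, 109 and 39 reads, which made it 2-fold or more higher in the knockout at E15 and lower at E18 (-2.65 [-6.41 to -3.25]). Rsad2 had 5.28, 13.4, 66.4 and 42.0 CPM (-1.85 [-2.39 to -1.62]). Mx2, of a family of antiviral GTPases but annotated here as a polymorphic pseudogene, had 3.41, 3.92, 16.0 and 3.73 CPM (-2.003 [-2.93 to -1.67]). In Mx2 the E18 wild type alone was high, whereas in Rsad2 both E18 libraries stood above both E15 libraries. Among the most abundant, Gbp7, a guanylate-binding protein, had 97.4, 125, 202 and 152 CPM (-0.76 [-0.89 to -0.65]) and Irf9, a part of the factor that binds ISRE, 125, 114, 236 and 193 CPM (-0.16 [-0.27 to -0.05]).

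Class I antigen presentation leaned the same way with 0 calls. Of 11 members, 10 were below 0, with a median of -0.22. Psmb10, an immunoproteasome subunit, had the lowest value (18.5, 28.4, 31.3 and 23.3 CPM, -0.9996 and just short of a call). B2m, the light chain of class I molecules, had 275, 380, 471 and 451 CPM (-0.53 [-0.60 to -0.46]). For both, the knockout exceeded wild type at E15 and lay below it at E18. B2m and Psmb10 overlap genes on the other strand.

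Immediate early genes, which respond to stimuli and to tissue dissociation, also leaned lower. Of 29 members, 20 were below 0, with a median of -0.31, and 3 were called lower and 1 higher. Fos had 2885, 2288, 6888 and 3621 CPM (-0.59 [-0.62 to -0.57]) and Jun had 3774, 3551, 5826 and 3918 CPM (-0.48 [-0.51 to -0.46]). Nr4a2, a relative of Nr4a1, had 113, 106, 78.6 and 30.5 CPM (-1.26 [-1.45 to -1.12]). For Fos and Jun the E18 wild type was the highest library, and for Nr4a2 the E18 knockout the lowest. Arc, a gene of neuronal activity, went the other way with 87, 71, 13 and 126 reads (2.30 [2.496 to 4.38]).

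**Figure D4:**
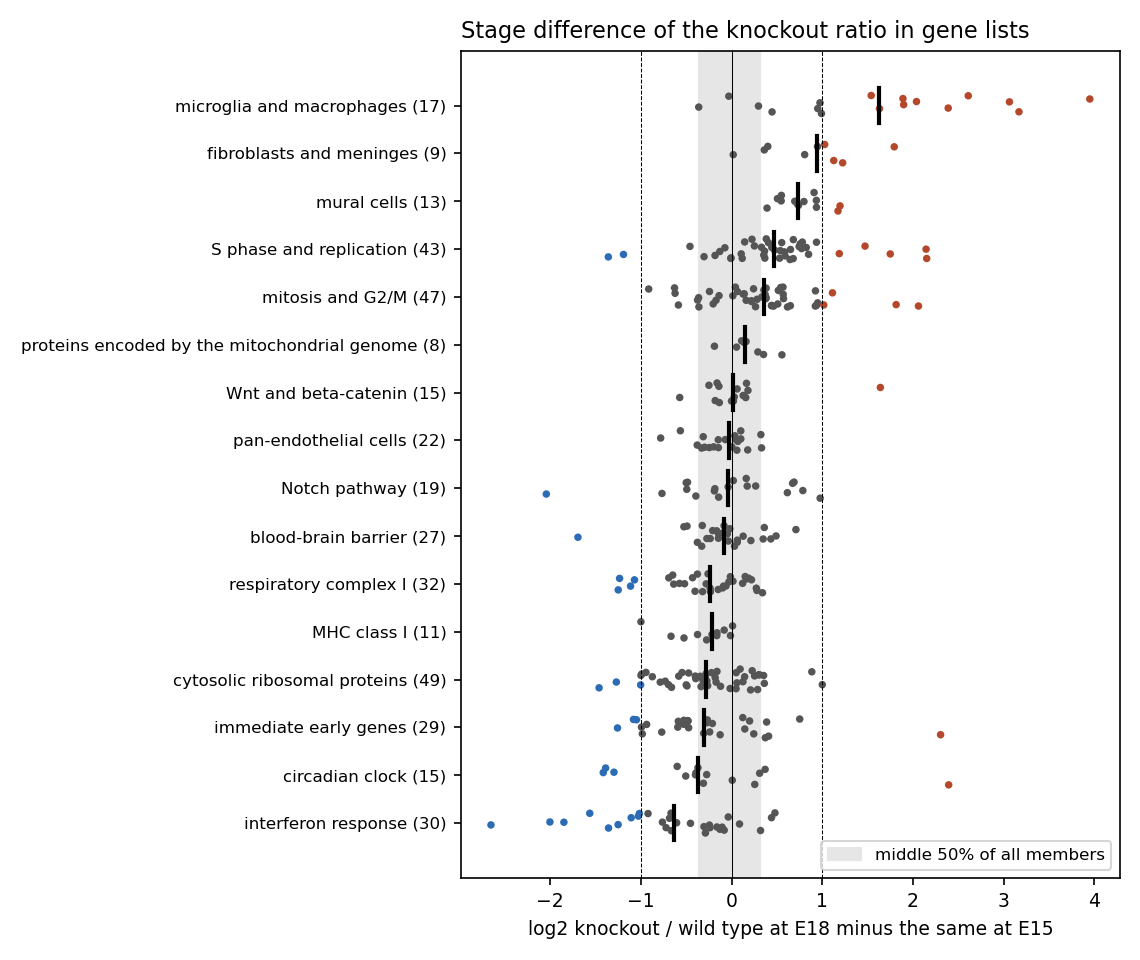
Each point is the stage difference (log2) of 1 member of a gene list, black bars are list medians, the number of members stands in brackets, and grey marks the middle 50% of all 10520 members. Microglial, fibroblast and mural genes lie to the right (medians of 1.63, 0.95 and 0.74) and interferon genes to the left (-0.64), while pan-endothelial genes straddle 0.

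Genes of respiration encoded in the nucleus leaned lower and those of the mitochondrial genome slightly higher. Of 32 subunits of complex I, 23 were below 0, with a median of -0.24, and 4 were called lower and 0 higher. Their median ratio was 0.30 at E15 and 0.06 at E18. Called members included Ndufa11 (6.82, 7.96, 12.7 and 5.59 CPM, -1.25) and Ndufs3, a core subunit (2.38, 5.76, 12.7 and 11.6 CPM, -1.11). The abundant Ndufv1, the subunit that takes electrons from NADH, was on the other side of 0 (197, 206, 196 and 239 CPM, 0.22 [0.13 to 0.31]), as was Ndufa9 (0.34).

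Complexes II to IV had 15 of 23 members below 0, a median of -0.17 and 1 call, Uqcrh (-1.10), while Sdha, the catalytic subunit of complex II, lay at 0.15. Proteins encoded by the mitochondrial genome were above 0 in 7 of 8, with a median of 0.15 and 0 calls. Among them mt-Cytb had 3096, 2841, 1781 and 1998 CPM (0.29 [0.26 to 0.32]) and mt-Co1 5084, 4068, 2930 and 2434 CPM (0.05). Of 49 cytosolic ribosomal proteins, 33 were below 0 and 3 were called lower, with a median of -0.28, but the abundant Rpl4 and Rplp0 lay at 0.29 and 0.30. Rpl35, the lowest, had 37, 143, 62 and 76 reads (-1.46). Ribosomal protein genes have many near-identical pseudogenes, so weakly counted members are uncertain.

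Of 26 mitochondrial carriers, the family of Ucp2, 14 were above 0, with a median of 0.11. The 2 called were Slc25a27, also known as UCP4 (6.11, 2.27, 4.25 and 7.002 CPM, 1.73 [1.48 to 2.83]), and Slc25a13, an aspartate and glutamate carrier (25.7, 17.8, 15.4 and 23.6 CPM, 1.09 [0.84 to 1.44]). Both were below wild type at E15 and above it at E18, while Ucp2 was below at both. Glycolysis, the tricarboxylic acid cycle and fatty acid oxidation had 0 calls, with medians of -0.06, 0.09 and -0.03.

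Clock genes and some gene clusters had single members with large values. Of 15 clock genes, 3 were called lower and 1 higher, with a median of -0.37. Hlf, an output factor of the clock, had 2.96, 1.78, 2.15 and 10.6 CPM (2.39 [2.21 to 3.86]), and Per3, a period gene, had 5.08, 7.96, 10.3 and 5.23 CPM (-1.42 [-2.15 to -1.10]). Hlf was high in the E18 knockout alone. Of 19 clustered protocadherins, adhesion proteins chosen cell by cell, 6 were called lower and 2 higher, with a median of -0.49. Pcdhb8 had 54, 194, 149 and 0 reads, a ratio at least 196-fold lower at E18, and Pcdhb17 had 21.9, 34.97, 48.3 and 25.3 CPM (-1.56 [-1.86 to -1.36]). Their near-identical sequences make single members uncertain.

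Imprinted genes went both ways. H19 and its neighbour Igf2, which share a control region, both lay above 0, with stage differences of 1.52 [1.36 to 1.73] and 1.13. H19, a noncoding RNA, had 105, 64.7, 30.5 and 55.0 CPM, below wild type at E15 and above it at E18. Kcnq1ot1, a noncoding RNA that silences genes nearby, had 80.04, 64.2, 21.1 and 3.00 CPM (-2.15 [-2.89 to -2.10]) and overlaps Kcnq1 on the other strand. Of 17 imprinted members, 12 were above 0, 2 were called higher and 2 lower, with a median of 0.32.

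A class of poorly known transcripts had its lowest ratios in the E18 knockout. GENCODE marks as TEC those transcribed regions that still await experimental proof, and 62 of the 78 TEC members lay inside a protein-coding gene, 59 on its strand. Of the 78, 66 had stage differences below 0, with a median of -1.24. In all, 44 (56.4%) were called lower and 5 higher, against 5.67% of 10068 protein-coding members called lower. The E18 knockout was the lowest library for 60 of 78. Their summed levels were 600.1, 696, 286 and 126 CPM, and their median ratio was 0.21 at E15 and -0.95 at E18. C130089K02Rik, inside Maml3, had 645, 787, 238 and 1 read.

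The contrast of TEC with protein-coding genes was present at a like mean level over the 4 libraries. Median levels of TEC members were 5.76, 6.31, 2.73 and 0.773 CPM. Bands of the mean therefore do not match the classes in their E18 level. They also do not remove the entry of members through an E15 library in which they were high. Among members below 10 CPM, 52.2% of 69 TEC genes were called lower against 15.3% of 1954 protein-coding genes, and between 10 and 30 CPM 8 of 9 against 6.7%. Other noncoding classes were more mixed. Of 44 antisense genes, 14 were called lower and 3 higher, with 12 of 30 lower below 10 CPM and 1 of 8 between 10 and 30 CPM. Of 78 long intergenic RNAs, 15 were called lower and 9 higher. Below 10 CPM 12 of 47 of these were called lower, with a median of 0.27, and between 10 and 30 CPM 0 of 19. Malat1, a nuclear RNA of long intergenic class chosen after its values were seen, had 110, 112, 37.6 and 10.5 CPM (-1.77 [-2.09 to -1.63]). Neat1, the scaffold of paraspeckles, and Airn, an antisense RNA, both chosen likewise, had smaller values of -0.38 and -0.45. Others lay on both sides of 0. H19, above, and Meg3, of the same class as Malat1 and chosen likewise, were at 1.52 and 0.53, and Rian, an imprinted noncoding RNA, was at -1.50. Long transcripts also leaned lower, with a median stage difference of -0.14 in the 10% of members with the longest exons and -0.03 in the 10% with the shortest. How far these transcript classes bear on the 312 called genes that were low in the E18 knockout was not tested.

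**Figure D5:**
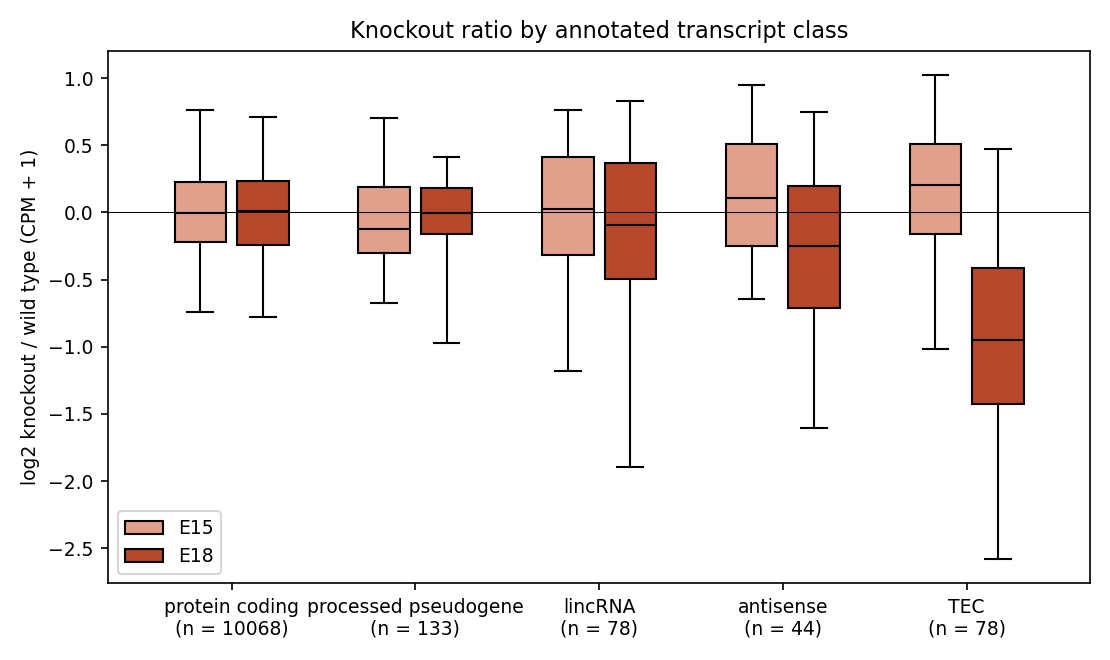
Boxes give the middle 50%, the median and the range from the 5th to the 95th percentile of the log2 ratio of knockout to wild type over members of each annotated class, at E15 (light) and E18 (dark). The classes sit near 0 at E15, and at E18 the TEC median is -0.95 and the protein-coding median 0.01.

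Most of the extreme values belonged to weakly expressed genes. Ttr, transthyretin, the choroid plexus protein that carries thyroxine, had 202, 5, 0 and 180 reads. The ratio was at least 2209-fold higher at E18, with 3 reads put in place of 0 and the 5 reads of the E15 knockout taken without counting error. The stage difference, which includes the pseudocount, was 6.62 or 98.4-fold. Choroid plexus genes Folr1, Otx2 and Kcne2 were at 0 in the E15 knockout and the E18 wild type, the libraries in which Ttr was lowest. The 8 measured genes of that list summed to 200, 246, 169 and 220 CPM. Most of this sum was Enpp2, with 175.5, 241.2, 166.4 and 204.2 CPM, so it says little about the rest of the list. The part of choroid plexus content in the value of Ttr was not tested. Tmc5, of the family of transmembrane channel-like proteins, had 66, 0, 0 and 163 reads (5.46). Ttr and Tmc5 were thus both high in WT E15 and KO E18.

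Fcgr2b, Tnfrsf14 and Ifi208 also stood among the 12 highest. Fcgr2b, an inhibitory receptor for antibodies, had 91, 6, 13 and 84 reads (3.85 [5.02 to 7.94]). Tnfrsf14, a receptor of the tumour necrosis factor family, had 126, 8, 50 and 126 reads (3.51). Ifi208, named as an interferon-activated gene of a multigene family, had 75, 0, 72 and 209 reads (3.68) and may share reads with its relatives. It was not in the interferon list above, of which 9 members were called lower and 0 higher, and lay on the other side of 0. All 3 were below wild type at E15 and above it at E18.

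The collagen genes Col15a1 and Col23a1 had 180, 34, 5 and 48 reads (3.36) and 89, 13, 20 and 86 reads (3.17). Col15a1 encodes a collagen of basement membranes. It was the 1 call among 17 basement membrane genes, whose median was 0.02, with Col4a1 at -0.06 and Lamb2 at -0.52. Fam161b, which overlaps Coq6 on the other strand, had 114, 42, 5 and 180 reads (4.09).

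Among the lowest 12, knockout libraries departed in 10. Low in the E18 knockout were Setd4, a methyltransferase gene (29, 107, 121 and 6 reads, -3.93), and Ttc12, a gene needed for motile cilia (158, 108, 287 and 1 read, -3.39). High in the E15 knockout were Efcc1 (28, 223, 65 and 13 reads, -3.86) and Rab6b, a trafficking GTPase (8, 212, 7 and 2 reads, -3.53). Efcc1 overlaps a gene on the other strand. Adamts14, a protease that processes procollagen, had 0, 89, 90 and 34 reads, a ratio at least 86.2-fold lower at E18. Hba-a2, an alpha globin gene nearly identical to Hba-a1, had 3, 93, 152 and 81 reads and is uncertain, while Hba-a1 had 213, 330.4, 572 and 475 CPM (-0.90).

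Opposite 2-fold calls at the stages included genes of varied roles. Arhgap9, a GTPase-activating protein of blood cells, had 153, 43, 0 and 40 reads (3.07) and overlaps Gli1. Pcgf6, a Polycomb subunit, had 40, 145, 51 and 3 reads (-3.16), high in the E15 knockout and lowest in the E18 knockout. Neurons, whose genes had lower ratios at both stages (medians -1.04 and -0.24), had 6 of 9 members above 0 and a median of 0.41. Map2, a microtubule protein of dendrites, had 16.8, 7.66, 10.3 and 20.6 CPM (1.97 [1.74 to 2.52]) and Elavl4, a neuronal RNA-binding protein, 78, 101, 109 and 20 reads (-2.07). Summed levels of the 23 measured neuronal genes were 340.3, 216, 152 and 134 CPM, with Neurod1, Snap25, Bcl11b and Ina at 0 in the E18 knockout.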

How the data were processed

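The authors deposited a table of raw read counts per Ensembl gene for each stage and, per the file headers, 1 column for each genotype. Tools in the submitters' processing notes, without their roles, are HTSeq 0.6.0, TopHat2 2.0.12 and Bowtie2 2.2.3, and the build there is mm9, but 9184 of 10517 members (87.3%) had the identical start and end in GENCODE M21, so positions are taken to be on GRCm38. The use of strand in counting was not given in the sources used here. Overlaps with a gene on the other strand are not marked for every gene named. They are present, among others, for Gclm, Ogn, Map2, Ndufs3, Rpl35, Ctnnb1 and Jun, which are uncertain to that extent. The authors' CPM, log2 folds and p-values were not used. The tables were joined on gene identifier and the deposited counts were scaled to library totals to give CPM (Python 3.11.15, pandas 2.3.3, numpy 2.4.6).

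A pseudocount of 1 CPM, under which differences of weak genes come out too small, entered each stage difference, and calls were made at 2-fold. Intervals are Wald intervals from the 4 counts, and 3 reads stood in for 0 in bounds. Counts above 0 entered these bounds as they were, without their counting error. With 1 library a group, no test was possible. On simulated counts for 10520 genes with counting error only, 99.5% of 200 genes changed 4-fold were called, with 0 false calls. Unchanged genes had the same level in all 4 simulated libraries, so these 0 false calls do not bear on the spread between embryos. Exon lengths came from GENCODE.

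The members and the 48 gene lists were chosen with earlier results of these data known. Named were the 12 highest and lowest members, the 10 highest and lowest at a mean of 100 CPM or more, the 6 opposite calls with the largest smaller ratio in each direction, in each list the 2 most abundant members and the 3 with the largest differences (all of a list with up to 6), and Ucp2. Not every gene so chosen is described, and a few are not reported here.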

Additional observations from a re-analysis of the deposited data

Results flagged for a closer look

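Among the named genes, the 20 given here had ratios past 2-fold in opposite directions at the stages, which is what singled them out. The difference was not tested for any of them, since each stage had 1 library per genotype. Lower in the knockout at E15 and higher at E18 were Ttr (stage difference 6.62), Tmc5 (5.46), Fam161b (4.09), Fcrls (3.95) and Fcgr2b (3.85). Ifi208 (3.68), Col15a1 (3.36), Col23a1 (3.17), Arhgap9 (3.07) and P2ry12 (3.06) belonged to the same group. Higher at E15 and lower at E18 were Pcdhb8 (-4.67), Setd4 (-3.93), Adamts14 (-3.86), Efcc1 (-3.86) and Gm37297 (-3.42). Pcgf6 (-3.16), the pseudogene AC153524.3 (-2.95), Ifit3 (-2.65), Pcdhb14 (-2.44) and Ptgs2 (-2.29) did likewise. Several had a library with few reads, for example 5 reads of Ttr in the E15 knockout and 3 of Pcgf6 in the E18 knockout. Fcrls and P2ry12 were the exceptions in level at E15, with 1147 and 1417 reads in the wild type.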

How the results depend on the processing

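The 2-fold counts of 500 higher and 680 lower genes followed the weak end of the data. With 5 CPM as the pseudocount they were 224 and 288, and a filter of 20 CPM and 400 reads left 149 and 242. A filter of 1 CPM and 50 reads gave 884 and 1189, and no filter 1045 and 1426. A call at 4-fold left 96 and 117. Counts within 1.5 times of the main ones came from TMM scaling (494 and 696), centring on the median (513 and 663), a pseudocount of 0.5 CPM (557 and 761), all chromosomes (523 and 705) and centring by exon length (508 and 656). Of the values of single named genes over these alternatives, 2056 stayed on the same side of 2-fold in the same direction, 34 lost the call, 8 gained it, 1 moved and 0 turned. A filter or the choice of chromosomes cannot change the value of a gene that is kept. Values under these settings were therefore bound to stay: 242 with all chromosomes, 242 with no filter, 242 with the filter of 1 CPM and 163 with that of 20 CPM. Of the 34 lost calls, 27 came with the pseudocount of 5 CPM. Of the list medians, 376 stayed, 24 moved and 1 turned: that of the clustered protocadherins was 0.26 in place of -0.49 under the filter of 20 CPM and 400 reads, with 5 members left. Leaving out a replicate could not be run, and no paired analysis was possible because each group has 1 library. Depth limits the genes at 0 reads in a library, of which the E18 knockout had 53.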

Other observations

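Stress and secretory lists that the text above does not describe had small shifts. Of 22 genes of the unfolded protein response, 15 were above 0 with a median stage difference of 0.18, and Hspa5, its main chaperone, had 951, 1032, 795 and 968 CPM (0.17 [0.12 to 0.21]). Trib3, a pseudokinase of that response, was its 1 call (-1.26). Of 18 heat shock chaperones, 2 were called lower and 1 higher. Cryab, a small heat shock protein, had 3.28, 3.06, 6.29 and 19.1 CPM (1.54 [1.07 to 2.34]), high in the E18 knockout, while Hspa8, a constitutive chaperone, lay at -0.07.

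In TGF-beta and BMP signalling, 12 of 24 genes were above 0. The ligand gene Tgfb1 had 8.30, 4.78, 3.41 and 6.23 CPM (1.40 [1.08 to 2.26]). Among guidance genes, 12 of 27 were above 0, with the netrin gene Ntn1 called higher (149, 81, 97 and 142 reads, 1.122) and the slit gene Slit2 called lower (106, 225, 174 and 138 reads, -1.40). Of 5 mast cell and granulocyte genes, 5 were above wild type at E15 and 4 at E18. By stage difference 2 were called higher and 0 lower, against 4.75% of all members called higher. The 2 were Cpa3, a mast cell protease (11, 114, 0 and 252 reads, 1.41), and S100a8 (0, 7, 16 and 113 reads, 1.22). The call of S100a8 rests on the pseudocount. With 0 reads in the E15 wild type its stage difference has no interval and no lower limit, so its direction is not settled. Ngp, a neutrophil granule gene, had 1, 83, 53 and 284 reads and was not called (-0.63). Kit, the most abundant, had ratios of 0.07 at E15 and -0.23 at E18.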
